A study of Mus musculus with 17 samples.

Results

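Heme synthesis was followed through 9 genes in blasts of TgSpi1 mice: Alas1, Alas2, Slc25a38, Alad, Uros, Urod, Cpox, Ppox and Fech. The genes were taken by name from the deposited count tables, which held 26029 genes in model 1 and 24659 genes in model 2, and all 9 were found in both tables and passed the filter on low counts. Blasts are immature erythroid cells that were taken from the spleen of sick mice and cultured with erythropoietin (EPO), and EPO was diluted 2 days before the RNA was extracted. One library of polyadenylated RNA was sequenced for each of 17 mice, and the study compared preleukaemic with leukaemic cells, and cells with and without the Fanconi anaemia gene Fanca.

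All 5 groups carried the Spi1 transgene, which overexpresses the transcription factor SPI1, so that no group without it was compared. Mice are named by the stage their titles give, P for preleukaemic and L for leukaemic, and their number. In model 1, from the strain DBA2JxFVB/N, 4 mice were TgSpi1FA+/+ preleukaemic (mice P445, P479, P451 and P138), 3 were TgSpi1FA-/- preleukaemic (mice P77, P224 and P40) and 3 were TgSpi1FA-/- leukaemic (mice L26, L28 and L39). In model 2, from the strain DBA2J and from cells obtained in earlier work, 4 mice were preleukaemic (mice P633, P663, P812 and P837) and 3 were leukaemic (mice L601, L606 and L921), all TgSpi1FA+/+. The paper reports that these leukaemic cells arose in preleukaemic mice given serial blood transfusions. Stage and transfusion therefore cannot be told apart in model 2. RNA input and fragmentation time were 400 ng and 8 min in model 1 but 300 ng and 2 min in model 2, so that model, strain and library protocol cannot be told apart. The ages of the mice were not given, and for mice P77, P224 and P40 some labels say leukaemic whereas the titles say preleukaemic, which was used here.

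Heme is built from glycine and succinyl-CoA in a chain of enzymes that starts and ends in the mitochondrion and passes through the cytosol. The first enzyme, aminolevulinate synthase, limits the rate and exists as a housekeeping form (ALAS1), which is restrained by heme, and an erythroid form (ALAS2), which is regulated by iron. Developing red cells need large amounts of heme for haemoglobin, and the chain is known to be induced together with the globin genes during their maturation.

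Library checks bear on how the values can be read. Fanca was at 28.2 to 83.5 CPM (read counts per 1000000 of the normalized library total) in the FA+/+ libraries of model 1, at 0.615 to 2.30 in the FA-/- libraries and at 28.1 to 44.1 in model 2. Spi1 was at 3.88 CPM in the leukaemic FA-/- library of mouse L39, against 220 and 630 CPM in mice L28 and L26 and 467 to 1061 CPM in the other libraries of model 1, and the differences between FA-/- leukaemic and FA-/- preleukaemic cells are therefore also given without mouse L39. Of the 17 erythroid markers in the tables, 14 to 16 exceeded 1 CPM in each library, and Hba-a2, which shares reads with a near-identical copy, had at most 4 reads in any library. Of 11 myeloid markers, 1 or 2 exceeded 1 CPM in each library of model 1, where their summed level was 2.28 to 5.79 CPM. Of these markers, Mpo and Itgam stayed under 0.2 CPM in all libraries of model 1. In model 2, 1 of 9 myeloid markers exceeded 1 CPM in each library, and the summed level was 4.01 to 10.2 CPM. The libraries of mice P445 and P479 lay closer to each other than any other pair within a group of model 1, with a chi-square of 8.53 per gene compared against 114 or more, which is still above sampling noise.

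The 9 genes lie on 7 chromosomes (GRCm38, GENCODE M21 protein-coding genes), with Alas1 and Slc25a38 on chromosome 9 and Alad and Urod on chromosome 4. Alas2 lies at chrX:150547375-150570638 on the plus strand, Cpox at chr16:58670292-58717636 on the plus strand, and Alad at chr4:62509169-62519918 on the minus strand. RefSeq promoter windows (250 bases before each annotated start, GRCm38.p6) matched 8 of the 9 genes, with 11 windows in all. AGATAA and TGATAA, which the erythroid GATA factors bind, were searched on both strands, together with AGATAG and TGATAG. One or more of them were present in 3 of these windows, of 3 genes (Alas2, Cpox and Uros), and in 26.5% of all 32851 windows. The letters CCNCNCCC, bound by KLF factors, were in 7 windows of 5 genes (45.9% of all windows), and GAGGAA, the core bound by ETS factors such as SPI1, in 2 windows of 2 genes (23.3% of all windows). Matches are descriptions of the sequence, not measured binding sites. The upstream sequences of Alas2, the most variable of the 9 genes, and of Cpox, the most abundant, are shown 5′ to 3′ on the strand of the gene, with the bases of the GATA matches in capitals. The Alas2 sequence is chrX:150547167-150547374, the part of its window before the first exon, and the Cpox sequence is chr16:58669958-58670207, where 2 matches overlap by 1 base.
Alas2: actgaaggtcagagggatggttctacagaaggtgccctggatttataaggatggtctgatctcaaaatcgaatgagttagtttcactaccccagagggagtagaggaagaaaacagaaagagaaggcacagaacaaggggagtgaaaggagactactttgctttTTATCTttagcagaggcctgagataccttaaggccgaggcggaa
Cpox: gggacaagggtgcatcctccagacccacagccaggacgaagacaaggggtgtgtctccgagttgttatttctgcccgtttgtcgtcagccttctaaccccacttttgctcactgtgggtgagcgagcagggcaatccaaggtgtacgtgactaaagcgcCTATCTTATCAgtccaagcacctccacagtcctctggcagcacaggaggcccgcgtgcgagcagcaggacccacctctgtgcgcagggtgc

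The 9 genes were expressed in every library, and their levels per kb of transcript spanned a wide range. Cpox, which encodes coproporphyrinogen oxidase, had a group mean of 247 to 283 CPM per kb, and it ranked first in 15 of the 17 libraries. Alad, which encodes aminolevulinate dehydratase, ranked first in the other 2, with group means of 63.1 to 221 CPM per kb. Urod, for uroporphyrinogen decarboxylase, ranked 2 or 3 in every library, with group means of 86.9 to 115 CPM per kb. The remaining genes were lower, at 32.3 to 45.6 CPM per kb for Slc25a38, 16.3 to 43.4 for Fech, 16.7 to 56.4 for Ppox and 11.8 to 23.3 for Uros. Alas1 was last in 12 libraries, with group means of 7.10 to 10.3 CPM per kb. Alas2 had the widest range of group means as a ratio, from 3.04 to 55.4 CPM per kb, and its rank moved between 4 and 9. Both tables were normalized separately, so that levels of model 1 and model 2 are set side by side only as a description. These ranks use the length of the longest principal transcript, and with the union of all annotated exons Cpox was first in 14 libraries and Alas1 last in 11.

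**Figure D1:**
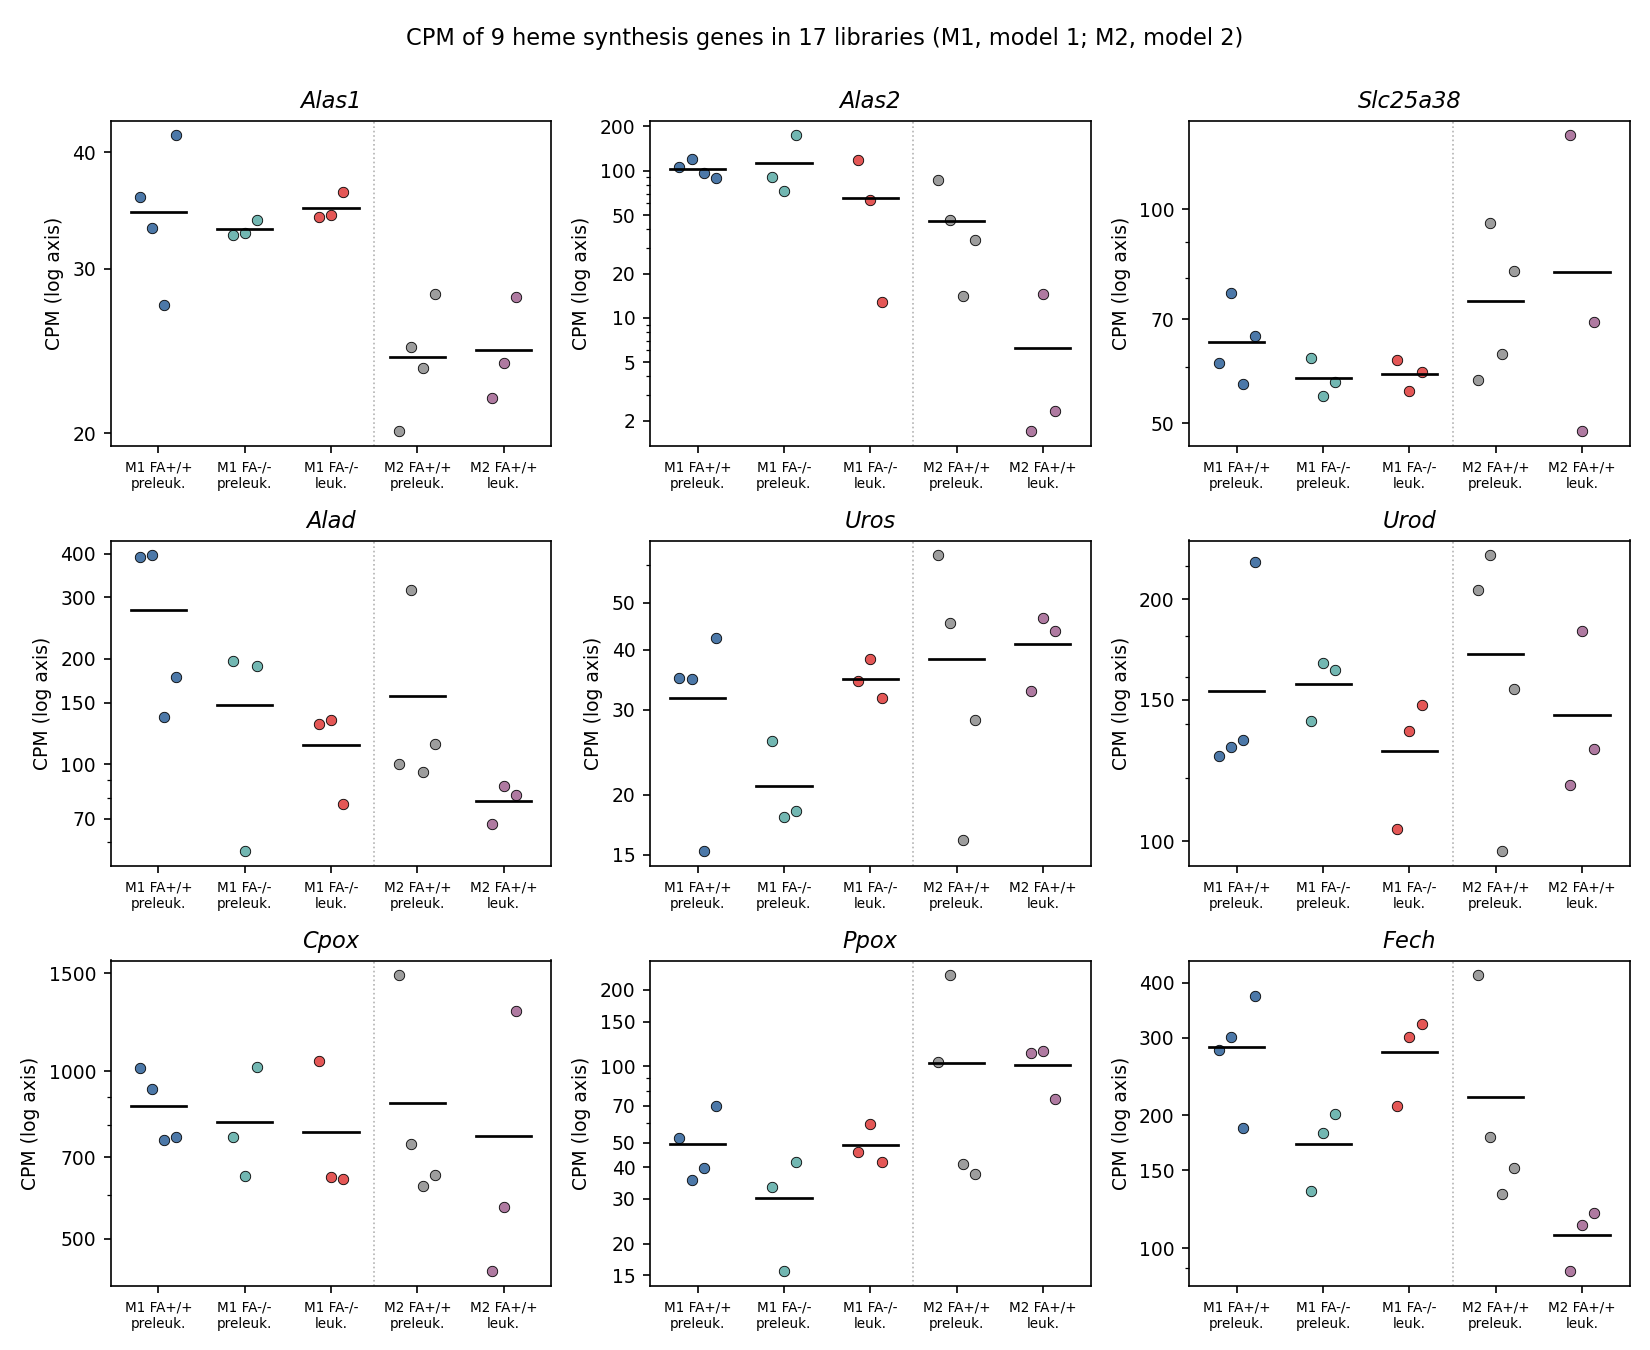
CPM of each of the 9 genes (log axis) in the 17 libraries, 1 point per mouse and a bar at the group mean, with model 1 left and model 2 right of the dotted line. Alas2 spans from 1.69 to 174 CPM, whereas Alas1 lies between 20.1 and 41.7 CPM in all libraries.

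None of the 9 genes passed the test in any comparison, which required an adjusted p under 0.05 in edgeR's quasi-likelihood test (Benjamini-Hochberg) and a fold change of at least 1.5. Between FA-/- leukaemic and FA-/- preleukaemic cells, 0 of 9 were called, where 13.3% of all 13393 genes tested were called. Their log2 differences were positive for 5 and negative for 4 genes, with a median of 0.020 against -0.0012 for all genes. Between FA-/- and FA+/+ preleukaemic cells 0 of 9 were called, against 0.00747% of all genes, and the median difference was -0.17 against 0.0048 for all genes. In that comparison the groups overlapped for all 9 genes, whereas they did not for 8.53% of all genes. Between FA-/- leukaemic and FA+/+ preleukaemic cells 0 of 9 were called, against 7.01% of all genes, with a median of -0.15 against 0.011. In model 2, 0 of 9 genes and 0% of all 12970 genes were called between leukaemic and preleukaemic cells, and the median was -0.20 against -0.030. At an unadjusted p under 0.05, 1 of the 9 genes passed in each comparison of model 1, where 32.4%, 8.65% and 27.2% of all genes did in the order given, and 2 of 9 passed in model 2, where 19.9% of all genes did.

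The 3 comparisons of model 1 share libraries with each other, so that their values are not independent. With DESeq2 in place of edgeR, 0 of 9 genes were called in each comparison of model 1, where that tool called 3099, 256 and 2245 genes in all, in the order given above. In model 2 it called 1 of 9, Alas2, and 470 genes in all. In model 1, confidence intervals were wide for Alas2, Alad and Ppox and narrow for Alas1 and Slc25a38. In model 2 they were widest for Alas2 and Ppox and narrowest for Alas1, and that of Slc25a38 ran from -0.67 to 0.94. A missed threshold therefore does not show that groups were alike.

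**Figure D2:**
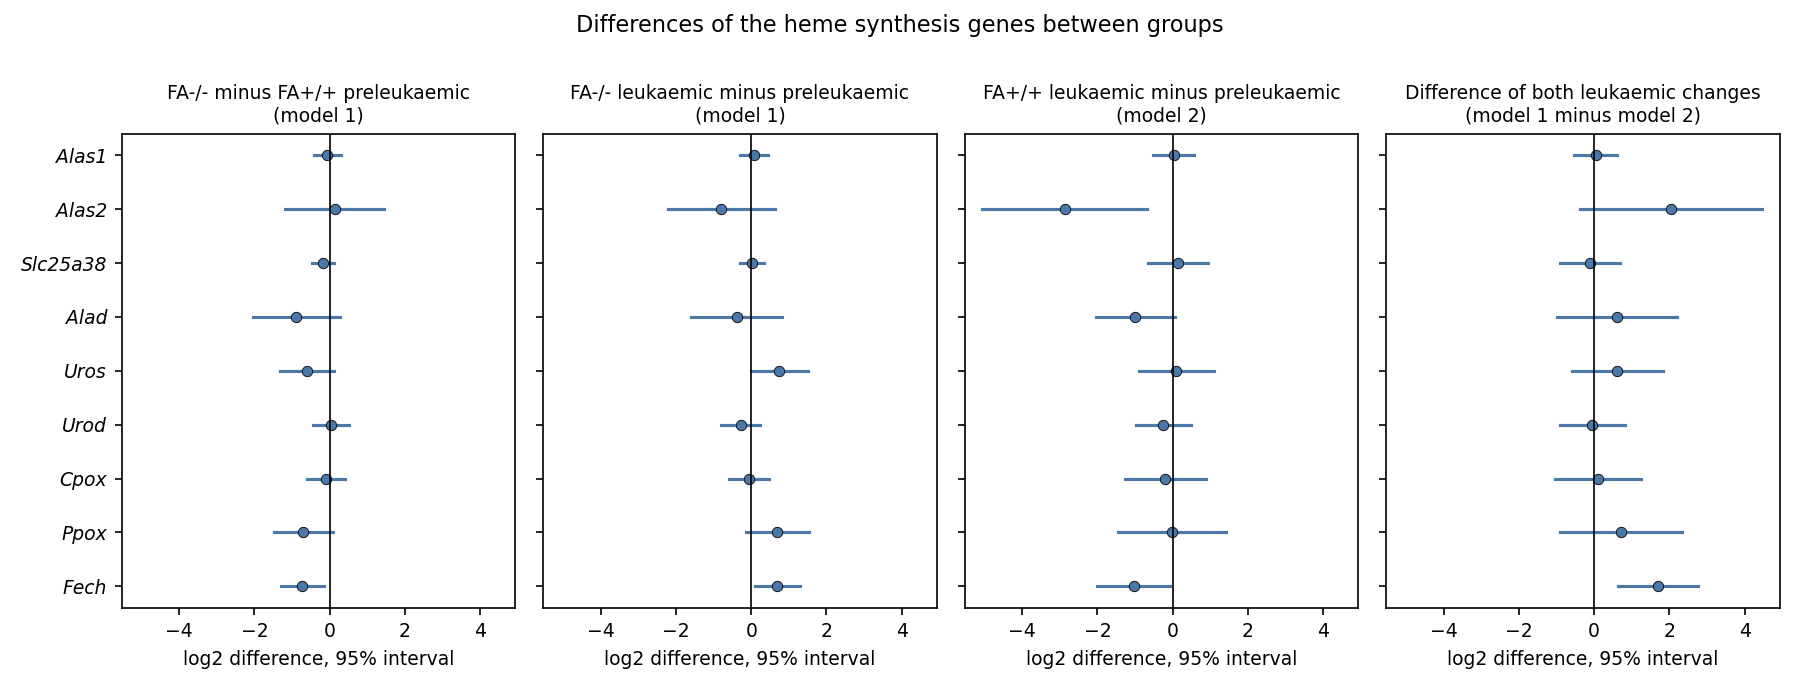
Log2 difference (point) with its 95% confidence interval (line) for each of the 9 genes, in 3 comparisons and in the model 1 minus model 2 contrast of the leukaemic differences. The interval of Alas2 in model 2 runs from -5.05 to -0.68, and that of Slc25a38 between FA-/- leukaemic and preleukaemic cells from -0.29 to 0.33.

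Alas2, the erythroid form of the first enzyme, was the gene whose level differed most between libraries. In FA+/+ preleukaemic cells of model 1 it was at 106, 120.4, 95.8 and 89.3 CPM (mice P445, P479, P451 and P138). In FA-/- preleukaemic cells it was at 91.1, 73.2 and 174 CPM (mice P77, P224 and P40), and in FA-/- leukaemic cells at 119, 63.0 and 12.8 CPM (mice L26, L28 and L39). The leukaemic library of mouse L39, the one with low Spi1, was the lowest of model 1, and that of mouse L28 also lay below all preleukaemic ones. That of mouse L26 lay within the preleukaemic range, so the groups overlapped. The log2 difference between FA-/- leukaemic and preleukaemic cells was -0.80 (95% confidence interval -2.22 to 0.62, adjusted p = 0.415), and it was -0.28 without mouse L39 and -1.57 without mouse L26. The difference between FA-/- and FA+/+ preleukaemic cells was 0.13 (interval -1.18 to 1.45, adjusted p = 0.974), and it turned to -0.33 without mouse P40. Alas2 is X-linked, and the X-inactivation transcript Xist was at 834, 1364 and 765 CPM in preleukaemic mice P138, P77 and P40 and under 0.1 CPM in the other 7 libraries of model 1, the 3 leukaemic ones included. Its part in the Alas2 values was not tested.

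In model 2, Alas2 was at 86.8, 46.3, 14.0 and 34.1 CPM in preleukaemic cells (mice P633, P663, P812 and P837) and at 1.69, 14.6 and 2.33 CPM in leukaemic cells (mice L601, L606 and L921). In mice L601 and L921 it was below every other library of the series, and only that of mouse L606 exceeded the lowest preleukaemic value, that of mouse P812. The group means were 45.3 ± 30.7 (SD, n = 4) and 6.20 ± 7.26 CPM (SD, n = 3). The leukaemic cells were 7.31-fold lower (log2 difference -2.87, SE 0.94, interval -5.05 to -0.68), which did not pass the correction in edgeR (adjusted p = 0.178). It passed in DESeq2, with -2.86 and an adjusted p of 0.0259, and leaving out 1 mouse at a time gave -4.49 (without mouse L606) to -2.34 (without mouse P633) with adjusted p of 0.106 to 0.404. Ordered by mean, the groups ran from 113 ± 53.9 (FA-/- preleukaemic) and 103 ± 13.6 (FA+/+ preleukaemic) to 64.8 ± 53.0 CPM (FA-/- leukaemic, SD, n = 3, 4 and 3), followed by both groups of model 2. Each neighbouring pair in this order overlapped.

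The highest Alas2 level over the lowest was 9.31 in FA-/- leukaemic cells, which exceeded the ratio of 93.4% of genes in that group, but it rests on mouse L39, since mice L26 and L28 were at 119 and 63.0 CPM. The ratio was 2.38 in FA-/- preleukaemic cells and 1.35 in FA+/+ preleukaemic cells, where 77.7% and 29.2% of genes had a smaller one. In model 2 it was 8.61 in leukaemic cells and 6.19 in preleukaemic cells, against medians over genes of 1.60 and 2.08.

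Alas1, the housekeeping form, hardly moved. It was at 35.8, 33.2, 27.4 and 41.7 CPM in FA+/+ preleukaemic cells (mice P445, P479, P451 and P138), at 32.6, 32.8 and 33.8 in FA-/- preleukaemic cells (mice P77, P224 and P40) and at 34.1, 34.2 and 36.2 in FA-/- leukaemic cells (mice L26, L28 and L39). The FA-/- leukaemic libraries were all above the FA-/- preleukaemic ones, without overlap, but by a log2 difference of only 0.075 (interval -0.31 to 0.46, adjusted p = 0.797), or 0.071 without mouse L39. Such a lack of overlap, in either direction, was seen for 38.7% of all genes tested in this comparison and for 3 of the 9 genes here, all with the leukaemic cells higher (19.4% of all genes). The FA-/- preleukaemic libraries differed in Alas1 by a ratio of 1.04 from lowest to highest, and only 1.27% of genes had a smaller ratio there. In the other groups this share was 2.55% (FA-/- leukaemic), 13.0% and 24.3% (model 2 preleukaemic and leukaemic) and 43.3% (FA+/+ preleukaemic of model 1, ratio 1.52). In model 2, Alas1 ranged from 20.1 to 28.2 CPM in preleukaemic and from 21.8 to 27.98 CPM in leukaemic cells, with a log2 difference of 0.023 (interval -0.51 to 0.56, adjusted p = 0.966). Of the exon bases of Alas1, 7.53% overlap an antisense gene, and the strand setting of the counting was not stated.

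The balance between both forms of the first enzyme therefore followed Alas2. Per kb of transcript, Alas2 exceeded Alas1 by 3.57 to 6.05 times in FA+/+ preleukaemic and by 3.72 to 8.59 times in FA-/- preleukaemic cells. In FA-/- leukaemic cells the ratio was 5.81, 3.07 and 0.588 (mice L26, L28 and L39), so that Alas1 exceeded Alas2 in mouse L39 alone. In model 2 it was 7.21, 3.12, 0.996 and 2.02 in preleukaemic cells (mice P633, P663, P812 and P837) and 0.129, 1.02 and 0.139 in leukaemic cells (mice L601, L606 and L921). Alas1 was thus the more abundant form in 2 of the 3 leukaemic libraries of model 2, while both forms were about level in mice P812 and L606. With the union of exons as length, these last 2 ratios were 1.53 and 1.57, and that of mouse L39 was 0.905.

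**Figure D3:**
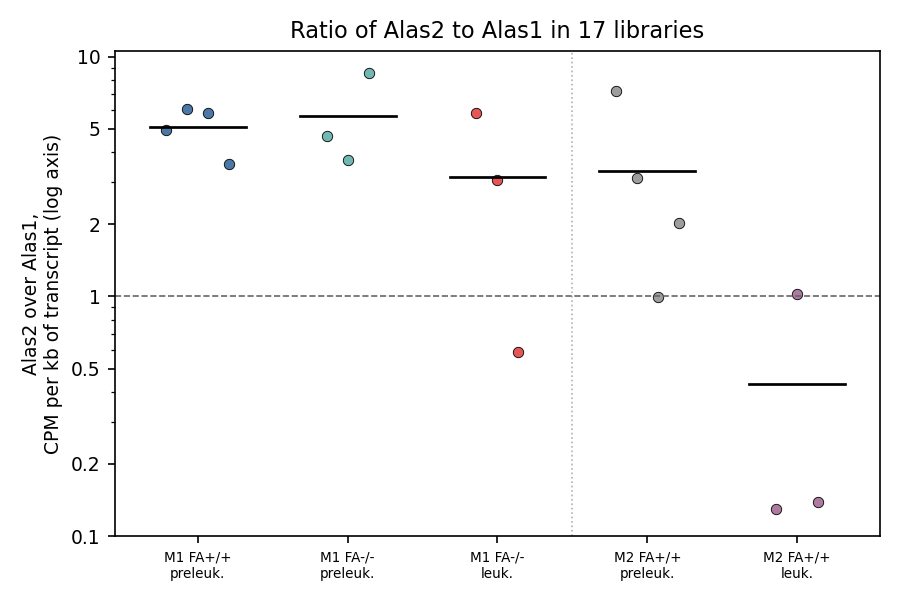
Ratio of Alas2 to Alas1 in CPM per kb of transcript (log axis), 1 point per library with a bar at the group mean, and a dashed line where both are equal. The ratio was under 0.2 in mice L601 and L921 of model 2 and 0.588 in mouse L39 of model 1, and it was 0.996 or more in all other libraries.

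Slc25a38, the mitochondrial carrier that brings in glycine for the first step, passed the test in no comparison. It was at 54.6 to 61.8 CPM in FA-/- preleukaemic and 55.5 to 61.4 CPM in FA-/- leukaemic cells, with overlapping groups and a log2 difference of 0.020 (interval -0.29 to 0.33, adjusted p = 0.939) that was 0.040 without mouse L39. FA+/+ preleukaemic cells of model 1 had 56.8 to 76.3 CPM, and FA-/- leukaemic cells differed from them by -0.15 (interval -0.44 to 0.14, adjusted p = 0.491). In the second deposited table this difference was -0.79 (adjusted p = 0.180). There, FA-/- leukaemic cells had 53.7 to 76.3 and FA+/+ preleukaemic cells 74.5 to 134 CPM of library totals, with overlapping groups. In model 2 its range was 57.6 to 95.6 CPM in preleukaemic and 48.7 to 127 CPM in leukaemic cells (difference 0.14, interval -0.67 to 0.94, adjusted p = 0.857).

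Alad, whose product joins aminolevulinate molecules to porphobilinogen, was lower in each leukaemic group than in FA+/+ preleukaemic cells of the same model, but short of the threshold. It was at 392, 395, 137 and 178 CPM in FA+/+ preleukaemic cells (mice P445, P479, P451 and P138), at 197, 56.5 and 191 CPM in FA-/- preleukaemic cells (mice P77, P224 and P40) and at 130.4, 134 and 77.1 CPM in FA-/- leukaemic cells (mice L26, L28 and L39). The highest leukaemic value just missed the lowest FA+/+ one, and with plain library totals both groups overlapped, with mouse L28 at 137 CPM and mouse P451 at 133 CPM, whereas FA-/- preleukaemic cells, with mouse P224 as their lowest, overlapped both groups. The log2 difference between FA-/- leukaemic and FA+/+ preleukaemic cells was -1.27 (interval -2.45 to -0.10, adjusted p = 0.153), and it was -1.04 without mouse L39. It was -1.06 with mice P445 and P479 summed as 1 library and -1.03 in the second deposited table of the same 7 mice. There, mouse L26, at 209 CPM of its library total, overlapped the FA+/+ mouse P451, at 70.2 CPM. In that comparison, groups did not overlap for 25.7% of all genes (12.9% with the leukaemic cells lower) and for 1 of the 9 genes. The difference between FA-/- leukaemic and preleukaemic cells was -0.38 (interval -1.59 to 0.83, adjusted p = 0.667) and -0.14 without mouse L39, and that between FA-/- and FA+/+ preleukaemic cells -0.89 (interval -2.05 to 0.26, adjusted p = 0.662).

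In model 2, Alad was at 101, 316, 94.99 and 114 CPM in preleukaemic cells (mice P633, P663, P812 and P837) and at 67.5, 87.0 and 81.7 CPM in leukaemic cells (mice L601, L606 and L921). The leukaemic values were all lower, and mouse P663 stood far above the other preleukaemic mice. The log2 difference was -0.99 (interval -2.04 to 0.06, adjusted p = 0.273), and it was -0.39 without mouse P663. Groups did not overlap for 20.1% of all genes of model 2 (10.4% with the leukaemic cells lower) and for 2 of the 9 genes, Alad and Fech, both lower.

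Uros encodes uroporphyrinogen III synthase, which closes the porphyrin ring in the cytosol, and the step just before it was not analysed here. Uros was at 25.9, 18.0 and 18.5 CPM in FA-/- preleukaemic cells (mice P77, P224 and P40) and at 34.5, 38.3 and 31.8 CPM in FA-/- leukaemic cells (mice L26, L28 and L39). All leukaemic libraries were higher, with a log2 difference of 0.74 (SE 0.34, interval -0.016 to 1.503, adjusted p = 0.162) that was 0.83 without mouse L39. FA+/+ preleukaemic cells were at 34.9, 34.7, 15.3 and 42.4 CPM (mice P445, P479, P451 and P138) and thus overlapped both FA-/- groups. From these cells FA-/- preleukaemic cells differed by -0.61 (interval -1.33 to 0.10, adjusted p = 0.629) and FA-/- leukaemic cells by 0.13 (interval -0.57 to 0.84, adjusted p = 0.826). The first of these shares its FA-/- preleukaemic libraries with the difference of 0.74. In model 2 the preleukaemic range of 16.1 to 62.8 CPM enclosed the leukaemic one of 32.8 to 46.5 CPM (difference 0.10, interval -0.91 to 1.11, adjusted p = 0.920).

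Urod, the last cytosolic enzyme, differed little between groups. Its lowest and highest values were 128 and 222 CPM in FA+/+ preleukaemic, 141 and 167 CPM in FA-/- preleukaemic, and 104 and 148 CPM in FA-/- leukaemic cells. The FA-/- groups overlapped, with a log2 difference of -0.28 between leukaemic and preleukaemic cells (interval -0.80 to 0.24, adjusted p = 0.44), which was -0.36 without mouse L39. In model 2 the range was 97.2 to 227 CPM in preleukaemic and 118 to 182 CPM in leukaemic cells (difference -0.25, interval -0.98 to 0.47, adjusted p = 0.687).

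Back in the mitochondrion, Cpox was high in all groups. It ranged from 753 to 1014 CPM in FA+/+ preleukaemic, from 648 to 1019 CPM in FA-/- preleukaemic and from 641 to 1042 CPM in FA-/- leukaemic cells. The log2 difference between FA-/- leukaemic and preleukaemic cells was -0.061 (interval -0.60 to 0.48, adjusted p = 0.891), and it turned to 0.087 without mouse L39. Model 2 was more spread, with 1486 CPM in preleukaemic mouse P633 against 623 to 740.3 CPM in the other 3, and with 1284 CPM in leukaemic mouse L921 against 437 and 570.5 CPM in mice L601 and L606. The groups overlapped (difference -0.20, interval -1.27 to 0.87, adjusted p = 0.845).

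Ppox encodes protoporphyrinogen oxidase, the enzyme before the insertion of iron. It was at 33.5, 15.6 and 42.1 CPM in FA-/- preleukaemic cells (mice P77, P224 and P40) and at 45.9, 59.3 and 41.8 CPM in FA-/- leukaemic cells (mice L26, L28 and L39). Only mouse P40 reached into the leukaemic range, and the log2 difference was 0.69 (interval -0.15 to 1.53, adjusted p = 0.230) and 0.82 without mouse L39. FA+/+ preleukaemic cells, at 35.6 to 69.9 CPM, overlapped both FA-/- groups. From these cells FA-/- preleukaemic cells differed by -0.70 (interval -1.49 to 0.096, adjusted p = 0.613) and FA-/- leukaemic cells by -0.0080 (interval -0.79 to 0.77, adjusted p = 0.992). The first of these shares its FA-/- preleukaemic libraries with the difference of 0.69. The level of Ppox depended on the table, since the second table gave 96.4 to 544 CPM of library totals in FA+/+ preleukaemic and 156 to 181 CPM in FA-/- leukaemic cells of the same mice, where the groups overlapped too. In model 2, preleukaemic mice P633 and P663 had 104 and 228 CPM and mice P812 and P837 had 41.2 and 37.6 CPM. The leukaemic mice L601, L606 and L921 were at 113, 115 and 74.4 CPM, within the preleukaemic range (difference -0.028, interval -1.46 to 1.41, adjusted p = 0.985). Among the 9 genes Ppox shares the largest part of its exon bases, 17.5%, with a gene on the other strand (B4galt3), followed by Alas2 with 12.9% (Apex2), and reads of such a pair cannot be told apart unless the counting used the strand.

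Fech encodes ferrochelatase, which inserts iron into protoporphyrin to make heme, and its difference between leukaemic and preleukaemic cells had opposite signs in both models. The gene lies at chr18:64452914-64490251 on the minus strand. It was at 281, 301, 187 and 372 CPM in FA+/+ preleukaemic cells (mice P445, P479, P451 and P138), at 134, 182 and 201 CPM in FA-/- preleukaemic cells (mice P77, P224 and P40) and at 209.6, 301 and 322 CPM in FA-/- leukaemic cells (mice L26, L28 and L39). The FA-/- leukaemic libraries were all above the FA-/- preleukaemic ones and within the range of the FA+/+ ones. Leukaemic FA-/- cells had a log2 difference of 0.69 to preleukaemic FA-/- cells (SE 0.27, interval 0.088 to 1.28, adjusted p = 0.110), which was 0.59 without mouse L39. FA-/- preleukaemic cells had a log2 difference of -0.73 to FA+/+ preleukaemic cells (interval -1.29 to -0.16, adjusted p = 0.535). Both differences rest on the same 3 FA-/- preleukaemic libraries, in which Fech was low, and FA-/- leukaemic cells differed from FA+/+ preleukaemic cells by -0.040 (interval -0.60 to 0.52, adjusted p = 0.937), or -0.15 without mouse L39.

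In model 2, Fech was at 415, 179, 133 and 152 CPM in preleukaemic cells (mice P633, P663, P812 and P837) and at 88.6, 113 and 120.0 CPM in leukaemic cells (mice L601, L606 and L921). The leukaemic libraries were all lower, with mouse P633 far above the rest. The log2 difference was -1.03 (SE 0.42, interval -1.999 to -0.070, adjusted p = 0.227), and it was -0.52 without mouse P633.

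Whether both models differed in the leukaemic change was fitted over the 17 libraries, as model 1 minus model 2. For Fech it was 1.70 on the log2 scale (SE 0.50, interval 0.62 to 2.77), with an adjusted p of 0.0612 that missed the threshold. The adjusted p was 0.0172 with DESeq2, 0.0498 without mouse L26 and 0.0331 without mouse P812, and 0.0515 to 0.13 when any other mouse was left out, with 1.21 as the lowest difference (without mouse P633). Calls over all genes also rose where Fech passed, to 2037 with DESeq2, 1050 without mouse L26 and 1359 without mouse P812, against 673 in the main fit. For Alas2 it was 2.05 (interval -0.37 to 4.46, adjusted p = 0.269). For the other 7 genes it lay between -0.12 and 0.71, with adjusted p of 0.521 to 0.96. Of the 9 genes 0 were called, where 4.61% of 14597 genes were called and 25.8% had an unadjusted p under 0.05 (1 of the 9, Fech), and 7 of the 9 had a positive value, with a median of 0.60 against 0.048 for all genes.

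The summed level of the erythroid markers was lower in both leukaemic groups. It was 9234 to 9720 CPM in FA-/- preleukaemic and 3791 to 6438 CPM in FA-/- leukaemic cells, 8092 to 11482 CPM in FA+/+ preleukaemic cells of model 1, and 8031 to 11574 CPM in preleukaemic against 4136 to 7148 CPM in leukaemic cells of model 2. The ranges of leukaemic and preleukaemic cells did not overlap within either model. Between FA-/- leukaemic and preleukaemic cells, 4 of the 16 markers tested passed the test as lower and 0 as higher, where 6.49% of all genes fell and 6.82% rose (median -0.66 against -0.0012 for all genes), and without mouse L39 there were again 4 (median -0.56). Differences were negative for 14 markers and positive for 2, which were not called. The 4 that fell were Klf1, the erythroid transcription factor (log2 difference -1.27, adjusted p = 0.00626), Ermap, an erythroid surface protein (-2.19, adjusted p = 0.00241), Ank1, the membrane skeleton protein ankyrin (-0.94, adjusted p = 0.0238), and the globin gene Hbb-bt (-5.94, adjusted p = 0.0265). In model 2 all 16 markers had a negative difference (median -1.08), and 0 were called. Markers of megakaryocytes moved the other way between FA-/- preleukaemic and leukaemic cells of model 1, where 2 of 7 tested passed as higher. These were Itga2b (3.20, adjusted p = 0.00472) and Vwf (2.89, adjusted p = 0.0308, and 0.0791 without mouse L39). The summed level of the 9 in the table was 45.9 to 60.5 and 175 to 278 CPM. Against FA+/+ preleukaemic cells, FA-/- leukaemic cells were higher for 2 of the 7 markers (1 called) and lower for 5 (median -0.45). FA-/- preleukaemic cells were higher than FA+/+ preleukaemic cells for 1 marker and lower for 6 (median -2.23), with 0 called. Their summed level was 62.6 to 211 CPM in FA+/+ preleukaemic cells of model 1, and Gp1bb was at 0 in all preleukaemic libraries of model 1. Between FA-/- leukaemic and preleukaemic cells, only 4 of 13 myeloid, 0 of 7 B cell and 1 of 8 T cell markers could be tested. The 1 T cell gene tested, Lck, was called as higher (2.168, adjusted p = 0.0293, and 0.0652 without mouse L39), and 0 myeloid markers were called. The T cell list summed to at most 7.87 CPM in any library. Mast cell markers summed to 31.2 to 94.9 CPM in preleukaemic and 159 to 211 CPM in leukaemic cells of model 2. All 6 tested there were higher, and 0 were called. In model 1 the sums were 5.64 to 40.7 CPM in FA-/- preleukaemic, 45.1 to 73.6 CPM in FA-/- leukaemic and 18.0 to 209 CPM in FA+/+ preleukaemic cells. Between the FA-/- groups, 2 of the 5 tested were higher and 3 lower (median -0.80), with 0 called. In such bulk libraries fewer cells of a type and less RNA per cell cannot be told apart, and the part of these markers in the values of the 9 genes was not tested.

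Set against this marker level, the 9 genes did not move as a block. Fech had its highest values of both FA-/- groups, 301 and 322 CPM, in mice L28 and L39, the libraries with the lowest erythroid sums of model 1 (5696 and 3791 CPM), and Hbb-bt was at 2.94 and 0.101 CPM there. Alas2 and Alad were low in mouse L39 (12.8 and 77.1 CPM). In model 2, Alas2 was lowest in mouse L601 (erythroid sum 4699 CPM) and mouse L921 (7148 CPM), and higher in mouse L606 (4136 CPM).

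**Figure D4:**
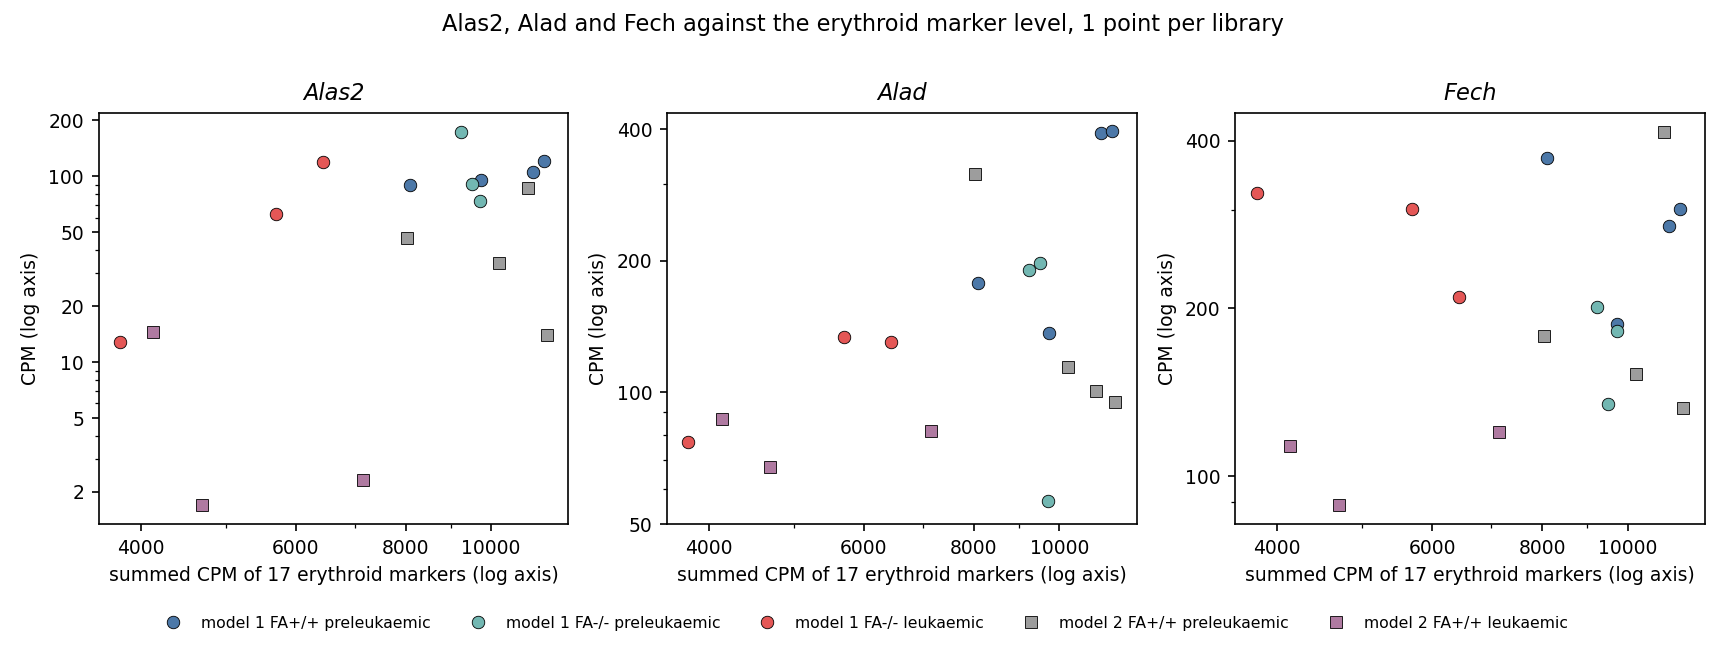
CPM of Alas2, Alad and Fech against the summed CPM of 17 erythroid markers (both log axes), 1 point per library, with circles for model 1 and squares for model 2. The 3 FA-/- leukaemic points lie at the left (3791 to 6438 CPM), between 209.6 and 322 CPM in Fech. In Alas2, mice L39 (12.8 CPM) and L28 (63.0 CPM) lie below all preleukaemic points of model 1, and mouse L26 does not.

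Genes that supply and use the chain were described from lists of its surroundings. Between FA-/- leukaemic and preleukaemic cells 1 gene of each list passed the test, among 11 carriers of intermediates and iron, 15 genes of iron-sulfur cluster assembly, 9 of glycine and succinyl-CoA supply, 8 heme and iron sensors and 8 genes of heme breakdown and export, where 13.3% of all genes did. Shmt1, which makes glycine in the cytosol, rose from 35.8, 60.9 and 87.4 CPM (mice P77, P224 and P40) to 146, 145 and 189.8 CPM (mice L26, L28 and L39), with a log2 difference of 1.39 (SE 0.28, adjusted p = 0.0188). Its groups did not overlap, and without mouse L39 the difference was 1.27 with an adjusted p of 0.052.

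The other 4 fell. Slc48a1, a heme transporter, was at 272, 303 and 344 CPM in preleukaemic and at 159, 148 and 114 CPM in leukaemic cells (-1.12, SE 0.17, adjusted p = 0.00878), and it was called in all 12 alternatives run. Aco1, the cytosolic aconitase that turns into the iron sensor IRP1 and binds the messenger of Alas2, was at 132, 192 and 221 CPM in preleukaemic and at 106, 100.4 and 107 CPM in leukaemic cells (-0.80, SE 0.19, adjusted p = 0.0275). All leukaemic values of both genes lay below the preleukaemic ones. Fdxr, which passes electrons to the ferredoxins of cluster assembly, had a difference of -1.02 (SE 0.23, adjusted p = 0.0259). Tspo2, an erythroid membrane protein, was at 15.4, 25.5 and 1.07 CPM in preleukaemic and at 0.685, 0.0767 and 0 CPM in leukaemic cells (-5.77, SE 1.57, adjusted p = 0.0415). Without mouse L39, Aco1, Fdxr and Tspo2 were not called (adjusted p = 0.0714, 0.0788 and 0.0802) and Slc48a1 was (adjusted p = 0.0298). The medians of the 5 lists lay between -0.33 (iron-sulfur cluster assembly) and -0.070 (glycine and succinyl-CoA supply), against -0.0012 for all genes. In model 2, 0 genes of these lists were called, and Aco1 had a difference of -1.18 (adjusted p = 0.162), with 101 to 163 CPM in preleukaemic and 49.4 to 65.4 CPM in leukaemic cells, which did not overlap.

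Likeness to Alas2 was described by the Pearson correlation of log2 CPM over the 10 libraries of model 1 and the 7 of model 2. These libraries share depth and the differences between groups. Among 12091 genes, the highest means of both correlations were those of Poll (0.94), a DNA polymerase, Map3k20 (0.93), a kinase of the stress response, Max (0.93), the partner of MYC, Susd6 (0.91) and Apobec3 (0.90), a restriction factor. Without mice L39 and P40, the 2 farthest from the Alas2 median of model 1, their correlations in model 1 were 0.72, 0.50, 0.63, 0.39 and 0.11 in the same order, so that a part of the likeness there rested on those mice. Without mice L601 and L921 those in model 2 were 0.72, 0.95, 0.93, 0.79 and 0.82. Of the other genes of the chain, Alad came nearest, at rank 820 (0.55 in model 1 and 0.60 in model 2), followed by Cpox at rank 1243 (0.69 and 0.32). Without the same mice this order turned, with 0.91 and 0.86 for Cpox and 0.61 and 0.38 for Alad. Fech had -0.34 in model 1 and 0.81 in model 2, but 0.019 and 0.91 without those mice, so that the negative sign rested on mice L39 and P40, and Alas1 had -0.20 in both.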

How the data were processed

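The authors sequenced stranded, poly(A)-selected libraries (TruSeq) and deposited raw read counts per Ensembl gene, 1 column per mouse. The submitters' processing notes name STAR 2.5.3a, HTSeq 0.6.1p1, bcl2fastq 2.17.1.14 and the mouse build mm10 (GRCm38). The annotation and the strand setting are not given in the sources used here. Total counts were 29964576 to 38217654 per library in model 1 and 37726753 to 40514205 in model 2. A second table of 7 mice of model 1 (35497594 to 171572736 counts) served as an alternative, and a further file, identical to the table of model 2, was left out.

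Counts were filtered with filterByExpr and normalized with TMM in edgeR 4.0.16 (R 4.3.3). Each model was fitted alone (glmQLFit, glmQLFTest) with all its groups, and the difference of the leukaemic changes was fitted over the 17 libraries on the genes of both tables. Adjusted p-values are Benjamini-Hochberg values over all genes tested. Calls needed an adjusted p under 0.05 together with a 1.5-fold change, the thresholds of the study. The SE was taken from the quasi-likelihood F statistic, and intervals (95%) use its degrees of freedom. CPM are counts per 1000000 of TMM-scaled totals, and CPM per kb use the length of the longest principal transcript in GENCODE M21. P-values measure the spread between mice. The scripts were tested on simulated data. DESeq2 1.42.0, other filters and scalings, the second table, the sum of mice P445 and P479 and leaving out each mouse were tried.

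The text names all 9 genes in each comparison, up to 4 genes per list with the smallest adjusted p between FA-/- leukaemic and preleukaemic cells, and the 5 genes most like Alas2. Members and lists were chosen with earlier results of these data known. The alternatives for the other lists, and their counts without mouse L39, were chosen after seeing the data, as was the naming of Xist, Gp1bb and the markers quoted for library checks. The step between Alad and Uros was not analysed here.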

Additional observations from a re-analysis of the deposited data

Results flagged for a closer look

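Within groups of 4 libraries, 4 values stood far from the others (Dixon's test, 18 groups searched, of which chance flags about 1 in 20). Alad was at 316 CPM in preleukaemic mouse P663 of model 2 (gap over range 0.913, the other 3 at 94.99 to 114). Urod was at 222 CPM in FA+/+ preleukaemic mouse P138 of model 1 (0.937, the other 3 at 128 to 134). Cpox, at 1486 CPM, and Fech, at 415 CPM, were both high in preleukaemic mouse P633 of model 2 (0.864 and 0.837). Alad and Fech are the 2 genes of the chain whose groups did not overlap in model 2, and without these mice their log2 differences were -0.39 and -0.52. The leukaemic change of Fech differed in direction between the models, with all FA-/- leukaemic libraries above and all model 2 leukaemic libraries below their preleukaemic counterparts. The difference of 1.70 on the log2 scale was tested and missed the threshold (adjusted p = 0.0612, edgeR). Model, genotype, blood transfusion, strain and library protocol cannot be told apart in it.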

How the results depend on the processing

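No paired analysis was possible because the groups share no replicate numbers. With DESeq2, 1 of the 9 genes was called in model 2 (Alas2) and 1 in the difference between models (Fech), and leaving out 1 mouse gave 0 to 1 in the latter (Fech, without mouse L26 or P812), whereas in the other comparisons every alternative gave 0 members called. Counts over all genes moved more. DESeq2 called 3099 (leukaemic against preleukaemic FA-/-), 256 (FA-/- against FA+/+ preleukaemic), 2245 (FA-/- leukaemic against FA+/+ preleukaemic), 470 (model 2) and 2037 genes (difference between models), against 1782, 1, 939, 0 and 673 in edgeR. Leaving out 1 mouse gave 414 to 2319, 1 to 16, 53 to 1911, 0 to 1 and 1 to 1359 genes in the same order. Without a filter 4 genes were called between preleukaemic groups and 279 in the difference between models, and for FA-/- leukaemic against FA+/+ preleukaemic cells 122 with mice P445 and P479 summed and 267 in the second table. Of 639 values of the 9 genes under alternatives, 581 kept direction and call, 4 passed the threshold newly and 54 changed sign, all of them of differences that were not called. With all mice, the sign changed for Alas1 (-0.39) and Uros (-0.14) between FA-/- leukaemic and FA+/+ preleukaemic cells in the second table, and for Ppox there with DESeq2 size factors (0.022), DESeq2 (0.017) and a filter of 1 CPM (0.012). It also changed for Ppox in model 2 with that filter (0.011), for Urod in the difference between models with DESeq2 size factors and DESeq2 (0.014 and 0.013), and for Urod between preleukaemic groups with mice P445 and P479 summed (-0.045). The causes were not tested. Leaving out 1 mouse gave ranges that cross 0 as follows. Between FA-/- leukaemic and preleukaemic cells these were -0.33 to 0.13 (Cpox) and -0.0081 to 0.085 (Slc25a38). Between preleukaemic groups they were -0.17 to 0.043 (Alas1), -0.33 to 0.36 (Alas2), -0.30 to 0.032 (Cpox) and -0.048 to 0.27 (Urod). Between FA-/- leukaemic and FA+/+ preleukaemic cells they were -0.069 to 0.12 (Alas1), -0.18 to 0.12 (Fech), -0.15 to 0.21 (Ppox) and -0.087 to 0.30 (Uros). In model 2 they were -0.074 to 0.11 (Alas1), -0.78 to 0.19 (Cpox), -0.30 to 0.73 (Ppox), -0.32 to 0.40 (Slc25a38) and -0.12 to 0.45 (Uros). In the difference between models they were -0.0070 to 0.88 (Alad), -0.070 to 0.15 (Alas1), -0.25 to 0.73 (Cpox), -0.061 to 1.004 (Ppox), -0.38 to 0.32 (Slc25a38) and -0.22 to 0.17 (Urod). The group mean CPM moved by less than 1 SD in all 45 cases with plain library totals. Of the 12 genes of the other lists called between FA-/- leukaemic and preleukaemic cells, Ermap, Itga2b, Klf1 and Slc48a1 were called in all 12 alternatives, and the other 8 in 6 to 9 of them. Each group held 3 or 4 mice, and Alas2 had 66 to 574 reads in the leukaemic libraries of model 2. Whether more depth would change a call was not tested.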
